A study of Mus musculus with 6 samples.

Results

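Of the 1960 mouse miRNA entries counted in the series, 5 make up the group described here: miR-2137, miR-6236, miR-6538, miR-6240 and miR-6239. They were picked by name as poorly supported entries that were near absent in Vehicle and high in ConA+Vehicle, and that may be fragments of longer RNAs. The values of those 4 libraries therefore chose the members, and they are given below as a description with no test. The choice used no numeric limit. All 5 had counts, and 4 of them passed the filter on low counts that left 297 entries for testing. miR-6239 did not pass. The libraries came from liver-infiltrating immune cells of wildtype female C57BL/6J mice aged 10 weeks, with 2 libraries per group that the labels call biological replicates. ConA+D8THC mice were injected in the retro-orbital sinus with 12.5 mg/kg of concanavalin A (ConA), a lectin from jack beans used to bring on T cell-driven hepatitis. D8THC, the cannabinoid delta-8-tetrahydrocannabinol, was injected into their peritoneum at 20 mg/kg in 100 µL of DMSO and corn oil. Its first dose preceded ConA by 15 to 18 h, and its second followed ConA by 30 min. ConA+Vehicle mice had the same ConA dose and, as their label says, vehicle in place of D8THC. Mice of the Vehicle group had neither ConA nor D8THC but DMSO in corn oil, and their label is no disease. The sources used here give neither the hour of collection nor the number of mice behind a library, so p-values measure only the spread between these libraries.

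A miRNA is cut from a hairpin in a longer transcript, first by Drosha and then by Dicer, and works in an Argonaute protein, where the seed (bases 2 to 8) pairs with target mRNAs. A well-supported hairpin gives a short product with a fixed 5′ end and often a product from each arm. Small RNA libraries also hold pieces of ribosomal RNA, transfer RNA and small nucleolar RNA. A miRNA entry can collect such pieces when its sequence resembles them. No function in liver or immune cells is given here for any of the 5 entries, and the deposited counts carry no read ends or lengths from which processing could be read.

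The mature sequences are shown because the 5 entries are known only by them and because their base composition is what sets most of them apart from other entries. They come from RefSeq (build GRCm38.p6), in which all 5 members had a match, and are written 5′ to 3′ with the seed in capitals.
miR-2137: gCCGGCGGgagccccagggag
miR-6236: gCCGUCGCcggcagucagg
miR-6538: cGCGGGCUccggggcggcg
miR-6240: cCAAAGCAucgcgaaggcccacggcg
miR-6239: uAGCGUUGgaucacucggug
No seed was shared among the 5. Of all 1671 entries of the table with a RefSeq sequence, 1 other had the seed of miR-6240 (miR-330-3p) and 1 had that of miR-6239 (miR-6351), and neither passed the filter. The longest run shared by any pair of members was 6 bases, between miR-2137 and miR-6236. The entry of the table with the longest run in common with a member was miR-6933-5p, with 11 bases of miR-6236, and the longest run of the other 4 members with any entry was 8 or 9 bases.

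The 5 hairpins lie on 5 chromosomes, each at 1 position in RefSeq. miR-2137 (chrX:72992113-72992133, plus strand) lies in a hairpin at chrX:72992079-72992144, within an intron of Zfp185 on the same strand. The miR-6538 hairpin (chr12:26414901-26415010, minus strand) lies in an intron of Rnf144a, a ubiquitin ligase gene of the same strand, 244 bases from the gene's start in GENCODE M21. The miR-6239 hairpin (chr14:117953743-117953847, minus strand) is in an intron of Gpc6, a glypican gene, on the opposite strand. The hairpins of miR-6236 (chr9:110281287-110281409, plus strand) and miR-6240 (chr5:114851948-114852064, plus strand) overlapped no other gene in GENCODE M21. Their nearest genes were 7543 bases (Gm42775) and 1600 bases (4930519G04Rik) away.

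Most of these mature sequences were rich in G and C. G and C made up 94.7% of miR-6538, 85.7% of miR-2137, 78.9% of miR-6236, 69.2% of miR-6240 and 55.0% of miR-6239. The median over the 250 tested entries with a sequence was 45.5%, and 0.8%, 1.2%, 1.6%, 3.2% and 19.2% of those entries were at or above the members in that order. Their lengths varied. miR-6236 and miR-6538 have 19 bases, the shortest length among the tested entries, and miR-6240 has 26, the longest. Each of the 5 hairpins has a single listed product, against 13.6% of the tested entries with a sequence.

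The annotated hairpins also varied. Those of miR-6236, miR-6240, miR-6538 and miR-6239 have 123, 117, 110 and 105 bases, against a median of 85 over 249 tested entries, while that of miR-2137 has 66. The minimum free energy computed with RNAfold was -0.21 kcal/mol per base for the miR-6240 hairpin. This was weaker than -0.43, the median of tested entries, and 2.01% of them were at or above it. The other 4 hairpins lay between -0.34 and -0.47. In the predicted folds, 73.1% to 85.0% of the bases of a member's mature sequence were paired, against a median of 82.6%. The hairpins of miR-2137 and miR-6239 are shown to let the place of the mature sequence be seen, in capitals, in the most abundant and the least abundant member.
Mir2137 hairpin: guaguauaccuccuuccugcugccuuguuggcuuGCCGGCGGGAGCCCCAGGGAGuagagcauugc
Mir6239 hairpin: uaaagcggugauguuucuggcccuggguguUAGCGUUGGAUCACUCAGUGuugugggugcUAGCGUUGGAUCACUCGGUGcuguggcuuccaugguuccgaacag
The Mir6239 hairpin holds its 20-base mature sequence at base 61 and a second copy with 1 mismatch (G17A, counted from the 5′ end of the mature sequence) at base 31, and both stretches are in capitals. Bases read from the second copy differ from the mature sequence at that position alone.

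**Figure D1:**
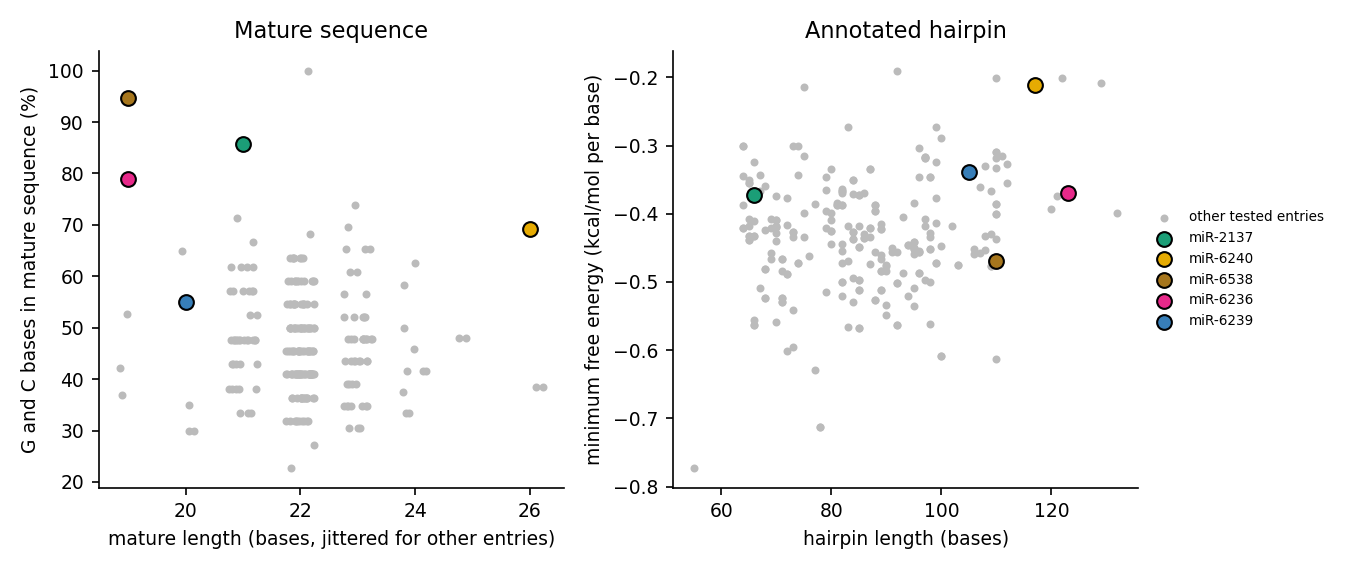
Left, G and C bases in the mature sequence (%) against its length in bases. Right, minimum free energy of the annotated hairpin (kcal/mol per base) against its length. Coloured points are the 5 members and grey points are other tested entries. miR-6538, miR-2137 and miR-6236 sit near the top of the left panel, and miR-6240 sits at 26 bases and at -0.21 kcal/mol per base.

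The question whether the members match longer RNAs was put to the annotated transcripts of GENCODE M21. Among 139565 transcripts other than miRNA hairpins, 0 held the whole mature sequence of a member on the sense strand, against 77 of the 250 tested entries (30.8%). Among the 3909 structural RNA transcripts of that set, 0 held a member's sequence, against 9 tested entries (3.60%), among them miR-5121, miR-3535 and miR-1839-5p. The longest run of a member in a ribosomal RNA transcript was 10 bases of miR-6239 in the 5.8S gene n-R5-8s1, and 8 or 9 bases for the other 4 members. The median of the tested entries was 9 bases and the highest was 13. The longest of the 356 ribosomal RNA transcripts searched had 1849 bases, which is shorter than the large-subunit ribosomal RNA. A match to that RNA, to the ribosomal precursor or to introns, and a match with mismatches, was not tested.

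Total counts were 913285 and 690713 in ConA+D8THC replicates 1 and 2, 381274 and 322764 in ConA+Vehicle, and 753887 and 1172389 in Vehicle. The pan-haematopoietic markers miR-142a-3p and miR-142a-5p, which define blood-derived cells, had counts in all 6 libraries, at 7.72% to 11.2% of counts in ConA+D8THC, 9.03% to 10.3% in ConA+Vehicle and 2.53% to 7.31% in Vehicle. Both endothelial markers, the arms of miR-126a, were also present, at 20.7% to 26.7%, 12.8% to 13.2% and 32.7% to 34.2% in the same order of groups. All 5 hepatocyte markers were present too, and took 4.73% to 6.35%, 15.9% to 18.2% and 7.89% to 13.2%. Both arms of the myeloid miR-223 took 1.48% to 2.17%, 2.75% to 2.91% and 0.333% to 0.353%. No marker of these lists was at 0 in any library. Fewer cells of a type and less RNA per cell cannot be told apart in these bulk libraries. The part of these markers in the results on the 5 entries was not tested.

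miR-2137 was the most abundant member in both ConA groups. It had 112 and 370 counts in ConA+D8THC replicates 1 and 2, 660 and 621 counts in ConA+Vehicle, and 1 and 7 counts in Vehicle. In CPM, which are counts scaled to library size with TMM factors, this was 116 and 526 CPM in ConA+D8THC, 1646 and 2055 CPM in ConA+Vehicle, and 1.38 and 6.14 CPM in Vehicle. The 3 groups did not overlap, and the ConA+D8THC libraries lay between the others. The 2 ConA+Vehicle libraries were the smallest by total count and yet held the most counts of miR-2137. By count, miR-2137 ranked 135 and 77 among the detected entries in the ConA+D8THC libraries, 57 and 50 in ConA+Vehicle, and 419 and 315 in Vehicle.

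miR-6240 had 36.1 and 112 CPM in ConA+D8THC, 170 and 311 CPM in ConA+Vehicle, and 4.14 and 16.7 CPM in Vehicle. Its 3 and 19 counts in Vehicle were the highest sum of any member there, and its groups did not overlap. miR-6538 had 18.6 and 49.8 CPM in ConA+D8THC, 157 and 199 CPM in ConA+Vehicle, and 8.28 and 1.75 CPM in Vehicle. The low Vehicle values rest on 6 and 2 counts, and the groups again did not overlap.

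miR-6236 had 2 and 8 counts in ConA+D8THC and 14 and 16 in ConA+Vehicle, or 2.06 and 11.4 CPM against 34.9 and 53.0 CPM. It had no count in either Vehicle library, where 3 counts over the group would be 1.61 CPM. miR-6239 was the sparsest member, with 1 and 2 counts in ConA+D8THC, 5 and 8 in ConA+Vehicle and none in Vehicle. In ConA+Vehicle it reached 12.5 and 26.5 CPM. In each of the 4 libraries of mice given ConA, the order of counts was miR-2137, miR-6240, miR-6538, miR-6236 and miR-6239. Not every neighbour in that order differed beyond counting error. Exact 95% Poisson intervals of miR-6236 and miR-6239 overlapped in all 4 libraries, such as 30.3 to 86.0 and 11.4 to 52.2 CPM in ConA+Vehicle replicate 2. Those of miR-6240 and miR-6538 overlapped in ConA+D8THC replicate 1 (25.2 to 50.2 and 11.01 to 29.4 CPM), in ConA+Vehicle replicate 1 (132 to 215 and 121 to 201 CPM) and in ConA+Vehicle replicate 2 (251 to 381 and 152 to 256 CPM). Levels of different entries also carry the ligation and amplification bias of small RNA libraries, for which the counts are not corrected.

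**Figure D2:**
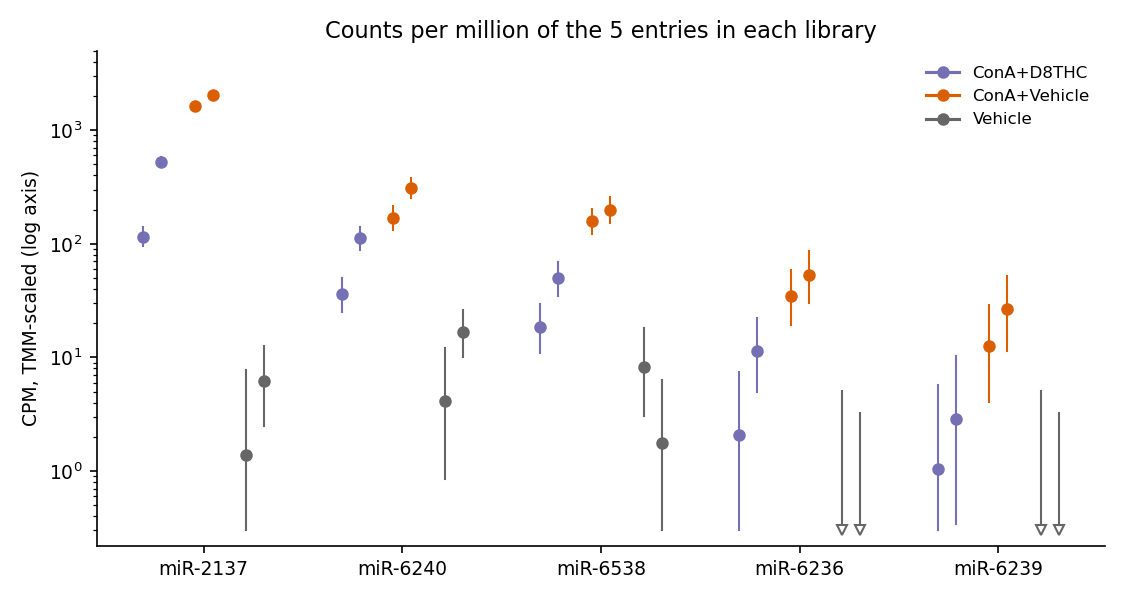
CPM with TMM scaling, on a log axis, of the 5 members in each of the 6 libraries, with ConA+D8THC, ConA+Vehicle and Vehicle from left to right. Points are libraries, vertical lines are exact 95% Poisson intervals cut at the bottom of the axis, and open triangles mark libraries with no count. For miR-2137 the ConA+D8THC points at 116 and 526 CPM lie between ConA+Vehicle at 1646 and 2055 CPM and Vehicle at 1.38 and 6.14 CPM.

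The values that chose the members were as follows. In mean CPM (SD, n = 2), miR-2137 was at 1850 ± 290 in ConA+Vehicle and 3.76 ± 3.36 in Vehicle, a ratio of 492. miR-6538 was at 178 ± 29.3 and 5.02 ± 4.61, a ratio of 35.4, and miR-6240 at 240 ± 100.1 and 10.4 ± 8.85, a ratio of 23.1. Against the floor of 3 counts over the Vehicle group, miR-6236 was at least 27.3-fold higher in ConA+Vehicle and miR-6239 at least 12.1-fold. The libraries of ConA+Vehicle lay above those of Vehicle for 5 of 5 members. Over all tested entries, 38.0% had ConA+Vehicle libraries above those of Vehicle and 29.3% had them below. By edgeR at an adjusted p under 0.05, 36.7% were called, 19.9% as higher and 16.8% as lower. Nothing is read from the members' count, because it is what they were chosen for.

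The rule of the choice names no ConA+D8THC values, but the members were picked with earlier results of these data known. The ConA+D8THC libraries are thus not a held-out set. They were compared with ConA+Vehicle to ask how the entries stood when D8THC was given with ConA. The ConA+Vehicle libraries are those in which the members were chosen as high, so lower values elsewhere are in part what the choice favours. Every fit of this comparison uses values of that group, so a call that holds across fits is not independent of the choice. miR-6538 was lower in ConA+D8THC, at 34.2 ± 22.1 CPM against 178 ± 29.3 CPM in ConA+Vehicle (SD, n = 2). This was 5.30-fold lower by edgeR's quasi-likelihood test (log2 -2.41 ± 0.53, SE, adjusted p = 0.0382). It was the only one called of the members whose test is read here (miR-6538, miR-2137 and miR-6240). Of all tested entries, 3.70% were called lower and 0 higher. The split by direction moved with the fit: DESeq2 called 5 entries higher and 12 lower, and the fit with the replicate block 12 higher and 32 lower. The call of miR-6538 held in all 13 alternative fits, with adjusted p-values from 3.94e-08 to 0.0487. Its log2 change was -3.22 without ConA+D8THC replicate 2 and -1.81 without ConA+D8THC replicate 1.

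miR-2137 and miR-6240 did not pass in this comparison by edgeR. miR-2137 averaged 321 ± 290 CPM in ConA+D8THC and 1850 ± 290 CPM in ConA+Vehicle (log2 -2.54 ± 0.64, adjusted p = 0.0852). It passed without ConA+D8THC replicate 1 (log2 -1.80, adjusted p = 1.42e-05) and without ConA+D8THC replicate 2 (log2 -3.97, adjusted p = 1.08e-16). In these fits the lone ConA+D8THC library is assumed to vary like the other groups. It also passed in limma-voom (0.00979) and with no filter (0.04998). Over the 13 alternatives its adjusted p lay between 1.08e-16 and 0.674. miR-6240 averaged 74.3 ± 53.9 CPM in ConA+D8THC and 240 ± 100.1 CPM in ConA+Vehicle (log2 -1.71 ± 0.61, adjusted p = 0.170). It passed in 4 of 13 alternative fits, in a range of 2.56e-05 to 0.256. Its log2 change was -1.08 without ConA+D8THC replicate 1 and -2.70 without ConA+D8THC replicate 2.

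miR-6236 averaged 6.72 ± 6.59 CPM in ConA+D8THC and 43.9 ± 12.8 CPM in ConA+Vehicle (SD, n = 2). It passed the filter on low counts through its ConA+Vehicle libraries alone, the group in which it was chosen as high, so no test of it is given here or against Vehicle. Its fitted log2 change was -2.78, with -1.89 without ConA+D8THC replicate 1 and -4.25 without ConA+D8THC replicate 2.

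miR-6239, which was not tested, had 3 counts in ConA+D8THC and 13 in ConA+Vehicle. The ratio of scaled summed counts was 0.0971. It is a description with no test, because the ConA+Vehicle counts are among those that chose this member as high. Both ConA+D8THC libraries lay below both ConA+Vehicle libraries for 5 of 5 members, beside 25.3% of all tested entries, while 21.5% had them above. The median log2 change of all tested entries was -0.04. The ConA+Vehicle libraries of this comparison are those in which the members were chosen as high, and such a choice by itself favours lower values elsewhere. The hepatocyte markers stood at 4.73% to 6.35% of counts in ConA+D8THC and 15.9% to 18.2% in ConA+Vehicle beside these values. Myeloid markers were lower too, at 1.48% to 2.17% and 2.75% to 2.91%. Endothelial markers went the other way, at 20.7% to 26.7% and 12.8% to 13.2%. Pan-haematopoietic markers overlapped, at 7.72% to 11.2% and 9.03% to 10.3%. Lymphocyte markers (miR-150-5p and miR-342-3p) overlapped as well, at 0.604% to 0.996% and 0.832% to 1.08%. Erythroid markers (miR-451a, miR-486a-5p and the arms of miR-144) were lower, at 0.0439% to 0.0557% and 0.0855% to 0.180%. The part of any of these markers was not tested.

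ConA+D8THC was also compared with Vehicle. The Vehicle libraries are those in which the members were chosen as near absent, so higher values elsewhere are in part what the choice favours. miR-2137 rose to 321 ± 290 CPM in ConA+D8THC, against 3.76 ± 3.36 CPM in Vehicle, 72.7-fold by edgeR (log2 6.18 ± 0.94, adjusted p = 0.00307). This call was lost in 3 fits. The adjusted p was 0.146 when Vehicle replicate 1 was left out, and 0.0878 when ConA+Vehicle replicate 2 was. With Vehicle replicate 2 left out, the log2 change was 7.69 and the adjusted p 0.214. Over the 13 alternatives its adjusted p lay between 1.34e-49 and 0.214. Without ConA+D8THC replicate 2 its log2 change was 4.74, and without ConA+D8THC replicate 1 it was 6.91.

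miR-6538 rose 7.24-fold, at 34.2 ± 22.1 CPM in ConA+D8THC and 5.02 ± 4.61 CPM in Vehicle (log2 2.86 ± 0.70, adjusted p = 0.0164). Its call held in all 13 alternative fits, and its log2 change was 4.11 without Vehicle replicate 1 and 2.02 without Vehicle replicate 2. miR-6240 rose 6.43-fold, at 74.3 ± 53.9 CPM in ConA+D8THC and 10.4 ± 8.85 CPM in Vehicle (log2 2.69 ± 0.71, adjusted p = 0.0207). It was not called once Vehicle replicate 1 was left out (log2 2.12, adjusted p = 0.113), and its adjusted p lay between 6.26e-08 and 0.113 over the alternatives. Without Vehicle replicate 2 its log2 change was 4.11, without ConA+D8THC replicate 2 it was 1.68 and without ConA+D8THC replicate 1 it was 3.31.

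miR-6236, with 10 counts in ConA+D8THC and none in Vehicle, was at least 4.18-fold higher against the floor of 3 counts over the Vehicle group. Neither of its ConA+D8THC libraries, at 2.06 and 11.4 CPM, reached the filter's limit of 13.8 CPM. miR-6239 had 3 counts in ConA+D8THC and none in Vehicle, both at or under the floor, and no fold is given. The ConA+D8THC libraries lay above those of Vehicle for 5 of 5 members, beside 37.7% of all tested entries, while 37.0% had them below. Of all tested entries, 32.7% were called, 18.5% as higher and 14.1% as lower. The comparison shares its ConA+D8THC libraries with the one before.

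**Figure D3:**
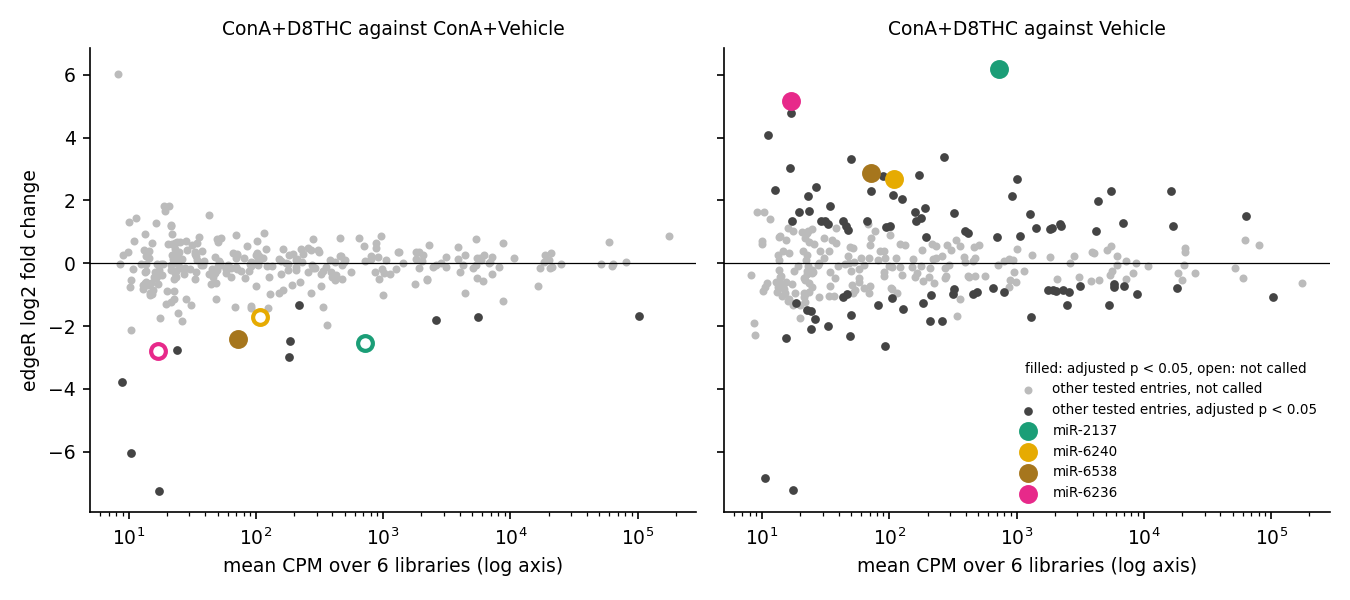
edgeR log2 fold change against mean CPM over the 6 libraries (log axis) for the 297 tested entries, with ConA+D8THC against ConA+Vehicle on the left and ConA+D8THC against Vehicle on the right. Grey and black points are other entries, and coloured points are the 4 tested members, filled where the adjusted p was under 0.05 and open where it was not. miR-6236 is drawn in the same way, though no test of it is read. On the left the members lie between -1.71 and -2.78, with miR-6538 filled. On the right miR-2137 is at 6.18. The height of miR-6236 on the right depends on the prior count, since it had no count in Vehicle.

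In ConA+D8THC, all 5 members had higher CPM in replicate 2 than in replicate 1, by 4.55-fold for miR-2137, 5.51-fold for miR-6236, 3.11-fold for miR-6240, 2.76-fold for miR-6239 and 2.68-fold for miR-6538. For miR-2137 the exact 95% Poisson intervals were 474 to 583 CPM in replicate 2 and 95.2 to 139 CPM in replicate 1, so that counting error alone does not cover the gap. The intervals of miR-6240 and miR-6538 did not overlap either, while those of miR-6236 (4.91 to 22.4 and 0.250 to 7.46 CPM) and miR-6239 (0.345 to 10.3 and 0.0261 to 5.75 CPM) did. Of the 294 tested entries with counts in both libraries, 2.72% differed by as much as miR-2137, and between 1.70% and 4.08% by as much as the other members. These shares include the tested members themselves, count either direction and are not matched on abundance. Sparse members are thus set against entries with many more counts. Over all tested entries, replicate 2 was higher in 45.8%. In ConA+Vehicle, replicate 2 was also the higher library for 5 of 5 members, by 1.25-fold for miR-2137 and by up to 2.12-fold for miR-6239, and over all tested entries it was higher in 48.8%.

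Other shares moved between the ConA+D8THC libraries too. In replicates 1 and 2, hepatocyte markers took 4.73% and 6.35% of counts, endothelial markers 20.7% and 26.7%, myeloid markers 2.17% and 1.48%, and pan-haematopoietic markers 11.2% and 7.72%. Their part in the difference between the libraries was not tested.

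The 5 members together took 0.0184% of all counts in ConA+D8THC replicate 1 (exact 95% binomial interval 0.0157% to 0.0214%) and 0.0715% in replicate 2 (0.0654% to 0.0781%). They took 0.212% and 0.248% in the ConA+Vehicle libraries, and 0.00133% and 0.00239% in the Vehicle libraries. The make-up of this sum differed less among the libraries of mice given ConA. miR-2137 was 66.7% and 74.9% of it in ConA+D8THC, 81.5% and 77.7% in ConA+Vehicle, and 10.0% and 25% in Vehicle. The Vehicle shares rest on 10 and 28 counts, with exact 95% binomial intervals of 0.253% to 44.5% and 10.7% to 44.9%, which lie below those of the other 4 libraries. miR-6240 was 20.8% and 16.0% of the sum in ConA+D8THC, 8.40% and 11.8% in ConA+Vehicle, and 30.0% and 67.9% in Vehicle.

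Ratios between single members are given without counting error, and no constancy or change is read from them. In Vehicle they rest on 1 and 7 counts of miR-2137, 6 and 2 of miR-6538, and 3 and 19 of miR-6240. For each count of miR-6538 there were 6.22 and 10.6 counts of miR-2137 in ConA+D8THC replicates 1 and 2, 10.5 and 10.4 in ConA+Vehicle, and 0.167 and 3.50 in Vehicle. For each count of miR-6240 there were 3.20 and 4.68 counts of miR-2137 in ConA+D8THC, 9.71 and 6.61 in ConA+Vehicle, and 0.333 and 0.368 in Vehicle. miR-2137 thus stood lower relative to miR-6240 in both ConA+D8THC libraries than in both ConA+Vehicle libraries, a difference given as values with no test.

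**Figure D4:**
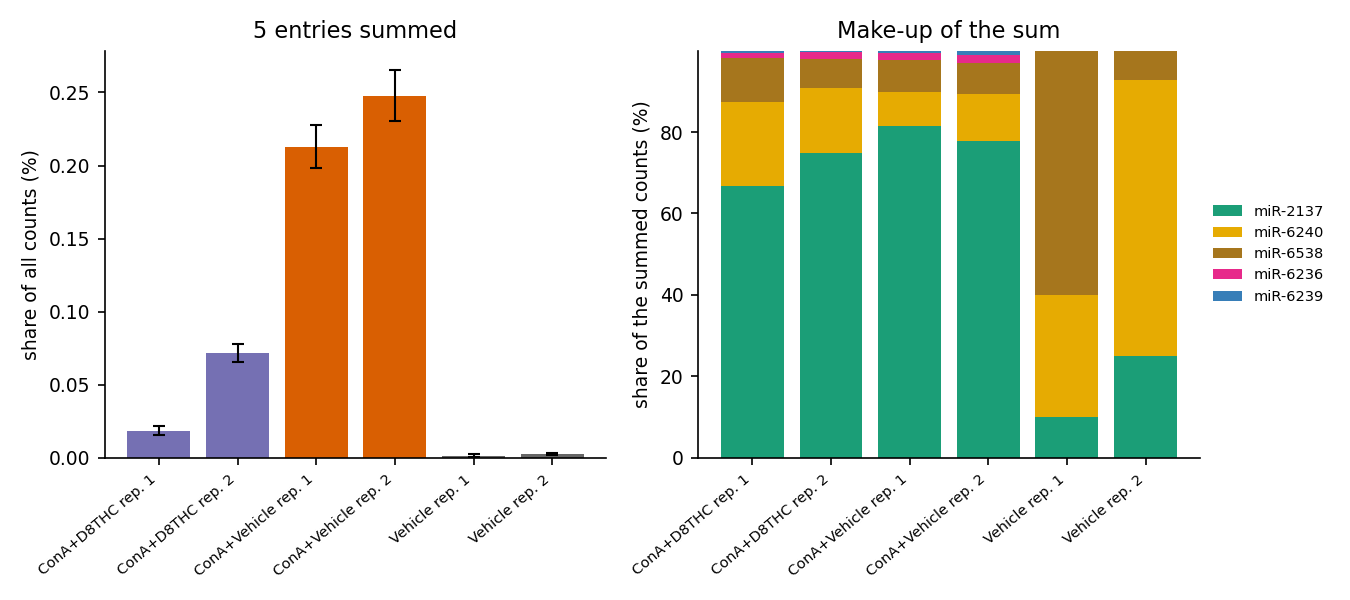
Left, share of all counts (%) taken by the 5 members in each library, with exact 95% binomial intervals that cover counting error only. Right, share (%) of each member in that sum. The ConA+D8THC bars at 0.0184% and 0.0715% lie between ConA+Vehicle at 0.212% and 0.248% and the Vehicle bars near 0, and miR-2137 fills most of the sum in the 4 libraries of mice given ConA.

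The profiles most like each tested member were found by the root mean square difference of log2(CPM + 1) over the 6 libraries, after each profile was centred on its own mean. For miR-2137 the 3 nearest of the 296 other tested entries were miR-6236 (1.63), miR-6240 (1.80) and miR-6538 (1.92), against a median of 3.75. Because the members were chosen for a common pattern, this closeness is in part what chose them. miR-6236 is moreover among the tested entries through its ConA+Vehicle libraries alone. The nearest entries that are not members were miR-147-5p (0.94 from miR-6538), miR-135a-5p (1.00 from miR-6538), miR-223-3p (1.04 from miR-6240) and miR-5121 (1.09 from miR-6236). miR-147 is known to rise in macrophages after Toll-like receptor stimulation, and miR-223 is abundant in neutrophils.

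The neighbours' own values were as follows, with no test between them and the members. They were picked for profiles like the members' over these same libraries, so their falls and rises are in part what picked them. The edgeR results below describe the neighbours and lend no support to the members' pattern. miR-5121 averaged 57.1 ± 34.0 CPM in ConA+D8THC, 445 ± 12.0 CPM in ConA+Vehicle and 42.3 ± 6.52 CPM in Vehicle. By edgeR, ConA+D8THC was lower than ConA+Vehicle (log2 -2.99 ± 0.41, adjusted p = 0.00399) and did not pass against Vehicle (log2 0.42 ± 0.42, adjusted p = 0.445). miR-135a-5p averaged 5.23 ± 1.36, 24.0 ± 1.25 and 1.82 ± 1.33 CPM in the same order. Like miR-6236, it passed the filter on low counts through its ConA+Vehicle libraries alone, so no test of it is given. miR-147-5p averaged 19.4 ± 3.25, 30.7 ± 5.96 and 0.690 ± 0.976 CPM, with log2 -0.66 ± 0.48 against ConA+Vehicle (edgeR, adjusted p = 0.582) and a call as higher against Vehicle (adjusted p = 0.00169). miR-223-3p averaged 17331 ± 4190, 28525 ± 3459 and 3512 ± 111 CPM, with log2 -0.72 ± 0.23 against ConA+Vehicle (edgeR, adjusted p = 0.106) and a call as higher against Vehicle (log2 2.30 ± 0.24, adjusted p = 0.000164).

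The entries numbered next to 3 of the members were looked at as well, since the numbers miR-6236 to miR-6244 follow each other. The table lists 7 of them, 3 members and 4 others. Of the 4 others, 3 (miR-6237, miR-6241 and miR-6244) had no count in any of the 6 libraries. The remaining entry, miR-6238, had 15.5 and 29.9 CPM in ConA+D8THC, 44.9 and 69.5 CPM in ConA+Vehicle, and 9.66 and 14.9 CPM in Vehicle. It rose in ConA+Vehicle against Vehicle by edgeR (log2 2.14 ± 0.49, adjusted p = 0.00615). It did not pass for ConA+D8THC against ConA+Vehicle (log2 -1.34 ± 0.46, adjusted p = 0.140) or against Vehicle (log2 0.80 ± 0.49, adjusted p = 0.222). Its ConA+D8THC libraries lay between those of the other groups, but by a small margin against Vehicle. ConA+D8THC replicate 1 was at 15.5 CPM (15 counts) and Vehicle replicate 2 at 14.9 CPM (17 counts). No likeness to the members is read from this order.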

How the data were processed

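The authors deposited raw read counts per mature miRNA, from QIAseq libraries per the labels and QIAGEN's GeneGlobe portal per the series' design text, with build mm10 per the submitters' processing notes. Not given in the sources used here: aligner, annotation, treatment of multiply matching reads, and any use of molecular identifiers. Intervals and floors cover counting error only. Counts were tested in R 4.3.3 with edgeR 4.0.16: filterByExpr by group, TMM factors, a group design over the 6 libraries (3 residual degrees of freedom), glmQLFit (robust) and glmQLFTest. Benjamini-Hochberg adjustment ran over the 297 tested entries, with a threshold of 0.05. The standard error is the absolute log2 change over the square root of F. limma 3.58.1 (voom) and DESeq2 1.42.0 were alternatives, with other scaling, no filter, 4-library fits, a replicate block and each library left out. The procedure was checked on simulated data. Features were computed with Python 3.11.15 and RNAfold 2.7.2 from RefSeq and GENCODE M21. Named entries are the members, their 3 nearest profiles and the neighbouring numbers. Members and lists were chosen with earlier results of these data known.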

Additional observations from a re-analysis of the deposited data

How the results depend on the processing

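ConA+D8THC against ConA+Vehicle gave 11 called entries, 0 higher and 11 lower, and this count moved by over 1.5 times with DESeq2 (17, of them 5 higher), no filter (19, 0 higher), the replicate block (44, 12 higher) and the 4 libraries of the compared groups alone (18, 4 higher). Leaving out 1 library at a time gave 8 to 40: 34 without Vehicle replicate 1, 40 without Vehicle replicate 2 (10 higher), 17 without ConA+Vehicle replicate 2 or ConA+D8THC replicate 1, and 24 without ConA+D8THC replicate 2. Among fits of all 6 libraries with 297 tested entries, 1 member was called in the main fit (of 11 called). It was also 1 with DESeq2 (of 17) and with library totals (of 11), and 2 with RLE factors (of 13). With limma-voom (14 called) and the replicate block (44 called) it was 3 members. With no filter, where 806 entries were tested and 19 called, it was 5. The counts of 2, 3 and 5 include miR-6236, of which no test is read. The 5 also include miR-6239, which did not pass the filter. For ConA+D8THC against Vehicle, 97 entries were called, and 63 to 112 with a library left out, the lowest without ConA+D8THC replicate 1. For ConA+Vehicle against Vehicle, 109 were called, and 67 to 129 with a library left out, the lowest without ConA+Vehicle replicate 1. In the other alternatives these 2 counts stayed within 1.5 times. The cause of these shifts was not tested.

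No log2 change of miR-2137, miR-6538 or miR-6240 turned its direction in any alternative run. This is not read as stability. Libraries of ConA+D8THC did not overlap those of either other group for any member, which largely fixed the direction beforehand. Sizes moved: for miR-2137 against ConA+Vehicle, log2 was -2.44 with DESeq2 and -2.94 with limma-voom. It was -1.80 without ConA+D8THC replicate 1 and -3.97 without ConA+D8THC replicate 2. With the replicate block, miR-6240 also passed for ConA+D8THC against ConA+Vehicle (adjusted p = 2.56e-05), and miR-2137 did not (0.0776). The block is no pairing by design. Deviations of same-numbered libraries correlated at 0.19 (Vehicle and ConA+Vehicle), 0.22 (Vehicle and ConA+D8THC) and 0.08 (ConA+Vehicle and ConA+D8THC) across entries. miR-6236 did not pass the filter in the 4 ConA+D8THC and Vehicle libraries alone. Mean CPM of the members moved by less than 1 SD with library totals or RLE factors. Depth limits miR-6236 and miR-6239, which have 40 and 16 counts in all.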
